A study of Mus musculus with 62 samples.

Results

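The comparison described here set soleus muscle of mice injected with cachectic melanoma cells (CAC) against soleus of mice injected with non-cachectic melanoma cells (NCAC), both 2 weeks after injection. Its members were the 10 libraries whose labels give that treatment and time, 5 CAC and 5 NCAC, of 62 libraries in the whole series, which spans 12 groups. A further set of 5 libraries from mock-injected mice of the same week (Con) was used for side-by-side values. All 15 mice were female and 2 months old. The characteristics name the strain as C57BL6/J, whereas the design text names NCI Ath/nude mice, so the strain is given here only as these conflicting labels. The labels name the injected cells by their effect and give no clone, body weight or muscle mass, so how far wasting had gone at 2 weeks is not stated in them. Polyadenylated RNA was sequenced as stranded libraries that the labels call biological replicates, and the deposited values are TPM, a transcript's length-scaled share of each library that keeps no read depth.

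The soleus is a postural hindlimb muscle rich in slow, oxidative fibres. Cachexia is a tumour-driven loss of muscle and fat. Cytokines of the interleukin-6 (IL-6) family are known to act on muscle through the shared receptor chain gp130 (Il6st) and the transcription factor STAT3, whose targets include its own gene and the feedback inhibitor Socs3. Muscle wasting is commonly tracked by the ubiquitin ligases Fbxo32 (atrogin-1) and Trim63 (MuRF1), which mark muscle proteins for the proteasome.

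The libraries carried the transcripts of slow muscle, with Myh7, the slow myosin heavy chain, between 5181 and 6558 TPM in CAC libraries and between 3829 and 5360 TPM in NCAC libraries. Between 11676 and 12001 genes reached 1 TPM in CAC libraries and between 11778 and 12108 in NCAC libraries. Pairwise correlations of log2 values across genes were 0.98 to 0.992 within CAC and 0.986 to 0.989 within NCAC. CAC replicates 2 and 4 stood apart from the other 3 CAC libraries in tendon and connective tissue transcripts, as described with those genes; the genes that passed and the lists most moved by these libraries are given there without them as well. Of 10 melanocyte markers 8 were under 1 TPM in all 10 libraries: Mlana reached at most 0.172 TPM in CAC and 0.186 TPM in NCAC, and Tyr was listed at 0 in every CAC library.

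How many genes separated CAC from NCAC soleus at 2 weeks depended on the fit. In the planned fit, on the log2(TPM + 1) scale, with limma's moderated test and Benjamini-Hochberg adjustment over 13529 genes, 7 genes were higher in CAC at an adjusted p under 0.05, which is 0.0517% of those tested, and 0 were lower. Without adjustment, 1071 genes (7.92%) were higher and 218 (1.61%) lower at p under 0.05. The 7 (GENCODE M21 positions on mm10) were Stat3 (chr11:100885098-100939540), Sbno2 (chr10:80056992-80105571), Rasa4 (chr5:136083916-136111860), Scx (chr15:76457452-76459458), Wbscr17 (chr5:130872082-131308497), Jtb (chr3:90231597-90235838) and a gene with a predicted name. The calls depended on single libraries, while all 7 differences stayed above 0. Leaving out CAC replicate 3, CAC replicate 4, or NCAC replicate 1, 3 or 5 in turn left 0 genes past the threshold. Leaving out NCAC replicate 4 left 4, and leaving out CAC replicate 1 gave 14. Over all alternatives the difference ran from 0.55 to 0.73 for Stat3, 1.02 to 1.23 for Scx and 0.71 to 0.91 for Sbno2 (log2). It ran from 0.77 to 1.1 for Wbscr17, 0.46 to 0.62 for Rasa4 and 0.27 to 0.37 for Jtb. For the gene with a predicted name it ran from 0.35 to 0.64. A fit of the 10 libraries alone called 1 gene higher (Trim72, 0.00739%) and 3 lower (Map2k6, Hivep2 and Timd4, 0.0222%), and the fit without the week-8 groups called 65 higher (0.481%) and 10 lower (0.0739%), the 65 holding all 7. Week 2 alone gave 38 higher and 13 lower, and weighting libraries by their quality 579 higher and 73 lower.

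Stat3, the signal transducer of IL-6 family receptors, had CAC values that stood clear of both other groups. CAC libraries had 26.9, 26.8, 44.7, 39.3 and 29.8 TPM, against 20.8, 20.7, 20.4, 21.6 and 18.3 TPM in NCAC libraries, and Con libraries had 19.4, 20.1, 20.5, 17.6 and 20.0 TPM. Every CAC library was above every NCAC and Con library, and CAC replicates 3 and 4 were the highest. The difference was 0.66 ± 0.13 (log2, SE; adjusted p = 0.0292, limma) against NCAC. It was 0.72 against Con (adjusted p = 0.0175), where Stat3 was the 1 gene past the threshold (0.00739% of those tested), while NCAC differed from Con by 0.06; these comparisons share libraries.

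Sbno2, a transcriptional co-regulator known as an interleukin-10 and STAT3-responsive gene in macrophages, had 10.1, 9.55, 14.9, 17.3 and 12.2 TPM in CAC libraries, against 6.42, 6.30, 7.16, 8.41 and 5.35 TPM in NCAC libraries. All 5 CAC values were above all 5 NCAC values, and also above the highest Con library at 9.05 TPM. The difference from NCAC was 0.82 ± 0.17 (log2, SE; adjusted p = 0.0332, limma). Rasa4, a GTPase-activating protein that turns off Ras after calcium signals, had 14.3, 21.3, 23.1, 18.5 and 17.6 TPM in CAC libraries, against 13.6, 13.0, 11.5, 12.5 and 13.0 TPM in NCAC libraries. The groups did not overlap, although CAC replicate 1 was close to the NCAC values and within the Con range of 12.7 to 15.2 TPM. Its difference was 0.53 ± 0.11 (log2, SE; adjusted p = 0.0368, limma).

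On the log2 scale, the NCAC mean of Scx and Wbscr17 lay farther from Con than the CAC mean did. Scx, the scleraxis transcription factor of tendon and connective tissue cells, had 36.3, 27.1, 31.3, 44.8 and 27.1 TPM in CAC libraries, against 11.3, 18.4, 9.97, 17.8 and 16.0 TPM in NCAC libraries, and 33.0, 34.4, 36.3, 25.2 and 15.3 TPM in Con libraries. CAC and NCAC did not overlap, and 4 of 5 Con libraries lay above the highest NCAC value. Scx was 1.14 ± 0.22 higher in CAC than in NCAC (log2, SE; adjusted p = 0.0292, limma), with CAC minus Con at 0.24 and NCAC minus Con at -0.90. Wbscr17 (Galnt17), a glycosyltransferase that starts mucin-type O-linked sugar chains, had 7.14, 3.73, 10.9, 8.91 and 6.22 TPM in CAC libraries, against 2.17, 3.37, 4.00, 3.86 and 3.15 TPM in NCAC libraries. CAC replicate 2 lay within the NCAC range and the other 4 CAC libraries above it, and the difference was 0.91 ± 0.18 (log2, SE; adjusted p = 0.0292, limma). Jtb, a small transmembrane protein, differed least, by 0.33 ± 0.07 (log2, SE; adjusted p = 0.0368, limma), with CAC at 66.0 to 77.0 TPM, NCAC at 52.4 to 61.1 TPM and Con at 56.3 to 67.1 TPM.

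**Figure D1:**
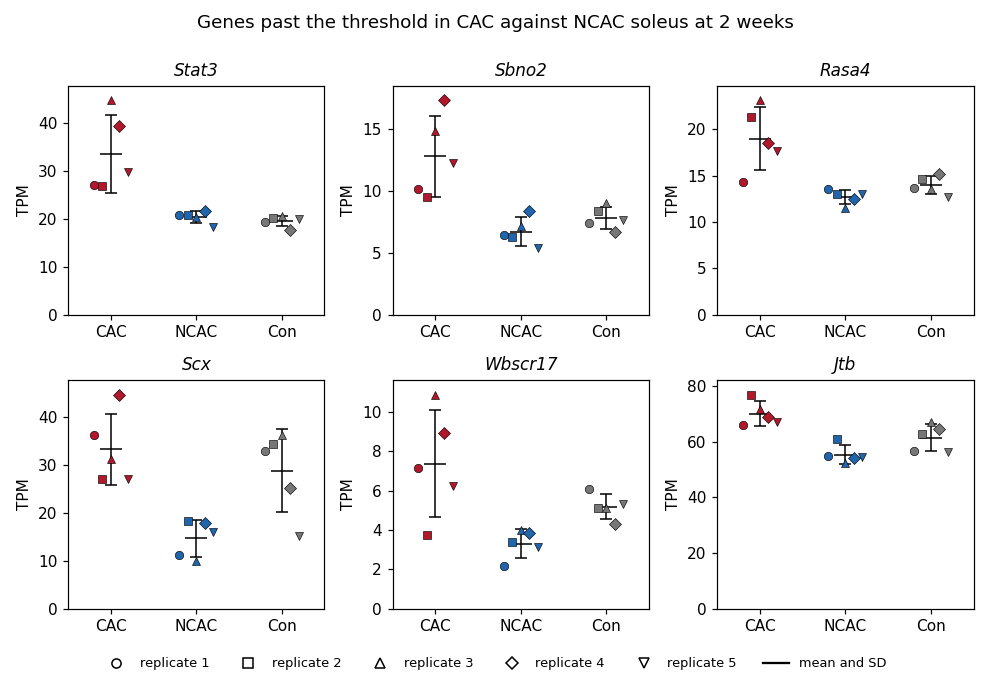
Level in TPM (vertical axis, from 0) of 6 named genes past the threshold, with a point for each of 5 CAC, 5 NCAC and 5 Con libraries at 2 weeks and the group mean with SD. Stat3 lies between 26.8 and 44.7 TPM in CAC and at 21.6 TPM or less in NCAC, while Scx in Con spans 15.3 to 36.3 TPM.

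The promoter windows of Stat3 and of a pair of genes known to respond to it are shown because Stat3 passed against both NCAC and Con. They are RefSeq windows of 300 bases on GRCm38.p6, from 250 bases before to 50 after a transcript start, on the minus strand of the genome: chr11:100939491-100939790 for Stat3, chr11:117969317-117969616 for Socs3 and chr10:80102653-80102952 for Sbno2. Capitals mark matches to TTCNNNGAA, the STAT motif, which reads the same on both strands.
Stat3: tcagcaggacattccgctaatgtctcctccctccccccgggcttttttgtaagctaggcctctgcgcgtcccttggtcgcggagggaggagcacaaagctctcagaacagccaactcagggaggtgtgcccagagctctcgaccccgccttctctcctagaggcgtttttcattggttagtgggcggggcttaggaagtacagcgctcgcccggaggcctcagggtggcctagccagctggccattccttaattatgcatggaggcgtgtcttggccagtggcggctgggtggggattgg
Socs3: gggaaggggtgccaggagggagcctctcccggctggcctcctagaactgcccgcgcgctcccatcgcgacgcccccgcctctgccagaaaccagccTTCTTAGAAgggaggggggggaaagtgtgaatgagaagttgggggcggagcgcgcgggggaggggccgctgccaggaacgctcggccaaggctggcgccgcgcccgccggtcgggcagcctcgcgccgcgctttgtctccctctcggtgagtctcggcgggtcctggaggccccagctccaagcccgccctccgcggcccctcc
Sbno2: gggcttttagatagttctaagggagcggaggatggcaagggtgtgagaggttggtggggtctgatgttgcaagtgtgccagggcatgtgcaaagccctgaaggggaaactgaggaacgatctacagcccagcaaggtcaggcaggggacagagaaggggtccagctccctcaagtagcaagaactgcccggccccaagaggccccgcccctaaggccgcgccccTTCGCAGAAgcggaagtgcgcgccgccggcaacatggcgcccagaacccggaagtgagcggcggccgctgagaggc
The Socs3 window held 1 match (TTCTTAGAA), whose first base lies 154 bases before the start, the Sbno2 window held 1 (TTCGCAGAA), 26 bases before the start, and the Stat3 window held 0. Sbno2 has 3 windows in the table, 2 of them with the motif. Of 32851 promoter windows in the table, 2726 (8.3%) held it, and the windows of Jtb, Rasa4, Osmr, Bcl3 and Junb did not.

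The rest of the IL-6 pathway moved less evenly. Of 23 tested members of a list of its ligands, receptors, kinases and inhibitors, 1 (Stat3) passed. There were 3 higher and 1 lower at an unadjusted p under 0.05 (7.92% and 1.61% of all tested genes, limma). The list median was -0.02, against 0.04 over all tested genes (log2). The shared receptor chain Il6st differed by 0.03, with a 95% interval of -0.19 to 0.26, and the ligand-binding chain Il6ra by -0.38 (-1.01 to 0.25). Osmr, the oncostatin M receptor, had 3.20, 4.77, 5.53, 4.33 and 3.12 TPM in CAC libraries, against 2.81, 2.88, 2.35, 3.10 and 2.23 TPM in NCAC libraries. Its groups did not overlap, as in 3.48% of tested genes with CAC above NCAC and 0.946% with CAC below, and its adjusted p was 0.357 (limma).

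Socs3, which blocks the receptor's kinases, had 2.56, 7.01, 7.72, 27.6 and 3.36 TPM in CAC libraries, against 1.98, 1.96, 2.24, 3.05 and 1.67 TPM in NCAC libraries, and Con libraries had 4.28, 3.95, 3.03, 1.84 and 2.45 TPM. CAC replicate 4 was far above all others, and CAC replicate 1 lay below the highest NCAC library. The difference was 1.33 ± 0.34 (log2, SE). Its adjusted p was 0.116 in the planned fit and 0.0379 without week 8 (limma). Cntfr, the receptor chain for ciliary neurotrophic factor, went the other way by -1.02 (adjusted p = 0.273, limma), with CAC at 1.08 to 3.65 TPM, NCAC at 3.32 to 8.93 TPM and Con at 2.14 to 6.10 TPM. Junb, an AP-1 subunit also induced by STAT3, had 9.76, 14.5, 17.5, 45.8 and 14.9 TPM in CAC libraries, against 6.90, 4.61, 5.88, 11.8 and 6.25 TPM in NCAC libraries. Again CAC replicate 4 was the highest, and the adjusted p was 0.106 in the planned fit and 0.0411 without week 8 (limma).

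Acute phase transcripts, which wasting muscle is known to make in later disease, were high in single CAC libraries. None of 21 tested members of the acute phase and STAT3 target list passed, and the list median was 0.10 (log2). Of the 21, 2 were higher at an unadjusted p under 0.05 (7.92% of all tested genes, limma). Hp, the haemoglobin-binding protein haptoglobin, had 15.3, 14.6, 161, 41.0 and 18.7 TPM in CAC libraries, against 23.1, 33.4, 3.32, 22.7 and 16.1 TPM in NCAC libraries. CAC replicate 3 stood far above all others, and so it did for the protease inhibitor Serpina3n, with 33.4 TPM where the other CAC libraries had 6.66 to 13.9 TPM and NCAC libraries 3.96 to 14.4 TPM. Mt2, a metal-binding metallothionein, reached 44.5 TPM in that library and 40.8 TPM in NCAC replicate 2. Con libraries had 5.66 to 12.5 TPM of Hp and 4.08 to 5.59 TPM of Serpina3n, below most libraries of both tumour groups. Bcl3, a nuclear co-regulator of NF-kB, had CAC at 1.82 to 3.71 TPM and NCAC at 0.821 to 1.55 TPM, with no overlap and an adjusted p of 0.257 (limma).

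The same contrast at later weeks compared the 7 genes in other mice. The fit used the same estimate of each gene's spread at every week, so the later p-values are not independent of those at 2 weeks. Stat3 was higher in CAC by 1.18 at 4 weeks (adjusted p = 4.61e-08) and by 1.43 at 6 weeks (adjusted p = 2.85e-11, limma). Sbno2 was higher by 1.13 and then 1.34 (adjusted p = 2.15e-05 and 7.19e-08, limma), and Rasa4 by 0.72 and then 1.12 (adjusted p = 3.67e-05 and 2.64e-10, limma). Wbscr17 passed at both weeks too, with 0.69 and 1.11 (adjusted p = 0.0351 and 1.92e-05, limma). Scx and Jtb did not, with 0.36 and 0.51 for Scx (adjusted p = 0.424 and 0.0799, limma) and 0.07 and 0.12 for Jtb (adjusted p = 0.671 and 0.179, limma). Including the gene with a predicted name, 5 of the 7 passed at 4 weeks and 4 at 6 weeks, and all 7 were above 0 at both; 190 genes (1.4%) were higher and 10 (0.0739%) lower at 4 weeks, and 3328 (24.6%) higher and 432 (3.19%) lower at 6 weeks. The difference between the 4-week and 2-week effects passed for 0 genes in limma (803 at an unadjusted p under 0.05, 5.94%), so no gene was shown to change its response between those weeks; for Stat3 that difference was 0.52 with an unadjusted p of 0.00774.

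**Figure D2:**
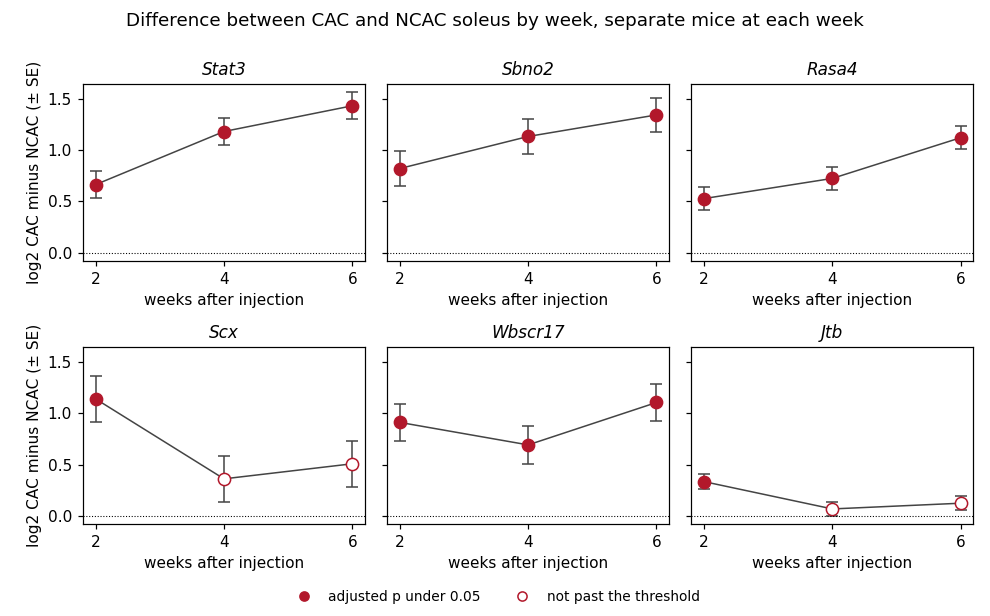
Difference of CAC minus NCAC in log2(TPM + 1), with its SE, at 2, 4 and 6 weeks for 6 genes; separate mice were used at each week, and filled points are past the threshold. Stat3 lies at 0.66, 1.18 and 1.43, whereas Scx lies at 1.14, 0.36 and 0.51.

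Genes that passed at 4 weeks mostly had the same sign at 2 weeks. Of the 190 genes higher in CAC at 4 weeks, 177 (93.16%) had a 2-week difference above 0, against 62.52% of all tested genes, and 5 passed at 2 weeks, which is 5 of 7 genes called at 2 weeks. All 10 genes lower at 4 weeks were below 0 at 2 weeks. Of the 3328 genes higher at 6 weeks, 71.72% were above 0 at 2 weeks. Of the 432 lower at 6 weeks, 49.54% were below 0 at 2 weeks. The share of the 3328 above 0 exceeded the 62.52% over all tested genes. Of the 432, 214 were below 0, and their 2-week median was 0.0016, against 0.04 over all tested genes (log2).

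Some genes just short of the threshold had CAC above both other groups, as in Stat3, while others had Con between CAC and NCAC. Atp9a, a phospholipid flippase of recycling endosomes, had 34.0, 45.4, 62.7, 57.8 and 38.4 TPM in CAC libraries, against 28.7, 32.6, 28.6, 26.8 and 25.1 TPM in NCAC libraries. The groups did not overlap, Con libraries at 25.9 to 30.7 TPM were below every CAC library, and the adjusted p was 0.068 at 2 weeks and 4.2e-06 at 4 weeks (limma). Flot1, a membrane-raft scaffold, averaged higher in CAC by 0.57 (adjusted p = 0.0675), and Grrp1 by 0.84 (adjusted p = 0.113); both passed at 4 weeks, with adjusted p of 0.000677 and 1.62e-05 (limma). The other higher genes by this rule were Junb, Mrps34, Bloc1s4, Emc6, Chkb, Pomp and Wdr55, with differences of 0.30 to 1.27 and adjusted p of 0.0693 to 0.113 (limma); of these, Junb and Wdr55 passed at 4 weeks.

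Of the 10 genes lower in CAC with the smallest p, 8 had the CAC mean closer to Con than the NCAC mean was, and 0 passed. Map2k6, a kinase that activates p38, had 12.2, 11.7, 11.2, 8.94 and 10.7 TPM in CAC libraries, against 23.5, 22.6, 32.0, 23.0 and 26.7 TPM in NCAC libraries, and Con libraries had 11.8, 17.8, 10.9, 11.2 and 22.3 TPM. CAC and NCAC did not overlap, and the difference of -1.15 ± 0.30 (log2, SE) had an adjusted p of 0.142 in the planned fit and 0.00445 in the fit of the 10 libraries alone (limma). Hivep2, a zinc-finger transcription factor, had 9.42, 9.04, 10.96, 7.77 and 8.69 TPM in CAC libraries, against 14.4, 15.1, 13.7, 16.3 and 15.6 TPM in NCAC libraries. It did not overlap either, with a difference of -0.66 (adjusted p = 0.0967, limma), and Con libraries spanned 7.35 to 11.7 TPM.

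Tbx15, a T-box factor of glycolytic muscle fibres, was the 1 gene past the threshold in NCAC against Con (0.58, adjusted p = 0.00646, limma). CAC libraries had 74.7 to 90.6 TPM, NCAC libraries 100.4 to 118.9 TPM and Con libraries 65.9 to 84.3 TPM, and CAC minus NCAC was -0.39 (adjusted p = 0.116, limma). Atl2, which joins tubules of the endoplasmic reticulum, Tmtc1, a mannosyltransferase, and Lnp, which stabilises tubule junctions, also had CAC below NCAC with no overlap (adjusted p = 0.116, 0.272 and 0.248, limma). The remaining members were Slc46a3, Intu, Pgm5 and Pfkfb1, the muscle and liver enzyme that sets fructose 2,6-bisphosphate, at 4.64 to 8.11 TPM in CAC libraries, 11.5 to 12.8 TPM in NCAC libraries and 8.16 to 13.3 TPM in Con libraries. None of the 10 passed at 4 weeks, and Map2k6 and Pfkfb1 passed at 6 weeks (-1.12, adjusted p = 0.00482, and -0.71, adjusted p = 0.0177, limma).

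Trim72 (MG53), which seals torn muscle membranes, and Cav3, the muscle caveolin that binds it, are given although their values were seen before they were picked. Trim72 had 516, 556, 703, 712 and 509 TPM in CAC libraries, against 326, 379.6, 349.6, 333 and 310.3 TPM in NCAC libraries, and Con libraries had 407 to 478 TPM. The 3 groups did not overlap in Trim72, with Con between the others, and the difference of 0.80 had an adjusted p of 0.116 in the planned fit, 0.0422 in the fit of the 10 libraries alone and 9.22e-06 without week 8 (limma). Cav3 differed by 0.40 (adjusted p = 0.273 in the planned fit and 0.0179 without week 8, limma), with CAC at 117 to 157 TPM, NCAC at 95.2 to 128 TPM and Con at 109 to 121 TPM.

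Several clock transcripts varied widely between CAC libraries and little between NCAC libraries. Of 19 tested clock genes 0 passed, and the list median was -0.06 (log2). By unadjusted p under 0.05, 4 were higher and 3 lower (7.92% and 1.61% of all tested genes, limma). Arntl (BMAL1), the activator at the core of the circadian clock, had 15.7, 2.07, 5.51, 26.9 and 24.1 TPM in CAC libraries, against 1.19, 3.25, 2.26, 1.34 and 1.46 TPM in NCAC libraries, and Con libraries had 24.9, 14.6, 11.6, 5.65 and 2.12 TPM. All NCAC libraries were low, while CAC and Con libraries ran from NCAC-like to over 20 TPM, and the adjusted p was 0.272 (limma). Per2, a repressor of the same clock that peaks opposite to Arntl, had 6.40, 15.5, 10.5, 3.88 and 2.86 TPM in CAC libraries, against 19.4, 17.7, 16.1, 16.4 and 16.6 TPM in NCAC libraries. CAC replicates 2 and 3, the low ones for Arntl, were the high ones for Per2, and the groups did not overlap (-1.25, adjusted p = 0.323, limma).

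Nr1d1 (REV-ERB alpha), Clock and its paralogue Npas2 were higher in CAC at an unadjusted p of 0.0122, 0.0079 and 0.01, and the PAR-domain factors Hlf and Tef lower at 0.0139 and 0.0341 (limma). At 4 weeks the Arntl difference was -0.17 and that of Per2 0.60. The part of these differences in the genes that passed was not tested. CAC replicates 2 and 3, with 2.07 and 5.51 TPM of Arntl, had 26.8 and 44.7 TPM of Stat3 and 27.1 and 31.3 TPM of Scx. Of these, replicate 3 was above every NCAC library for Arntl. Con replicate 5, the lowest Con library for Arntl, had 15.3 TPM of Scx, within the NCAC range of 9.97 to 18.4 TPM. The other Con libraries had 25.2 to 36.3 TPM of Scx. Stat3 was 17.6 to 20.5 TPM across Con libraries. The labels give no hour of collection.

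Glucocorticoid-responsive genes were split. Of 20 tested, 0 passed, and the median was -0.16 (log2). At an unadjusted p under 0.05, 3 were higher and 3 lower (7.92% and 1.61% of all tested genes, limma). Sgk1, a kinase of ion transport and protein sparing, had 17.2, 16.2, 23.7, 9.47 and 12.3 TPM in CAC libraries, against 32.3, 37.9, 24.1, 33.4 and 32.4 TPM in NCAC libraries, and Con libraries had 10.7 to 19.3 TPM. CAC was below NCAC with no overlap and near Con (-1.02, adjusted p = 0.319, limma), and so was Zbtb16, a steroid-induced transcription factor, at 22.9 to 36.8 TPM in CAC libraries, 37.0 to 83.8 TPM in NCAC libraries and 18.6 to 54.7 TPM in Con libraries (adjusted p = 0.371, limma). Tsc22d3 (GILZ), an anti-inflammatory steroid target, differed by -0.79 (adjusted p = 0.427, limma). Pdk4, which closes the mitochondrial entry of pyruvate, and Angptl4, an inhibitor of lipoprotein lipase, had differences of 1.05 and 1.22 (adjusted p = 0.371 and 0.375, limma), with 379 to 1316 TPM of Pdk4 in CAC libraries, 236 to 483 TPM in NCAC libraries and 101 to 660 TPM in Con libraries.

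**Figure D3:**
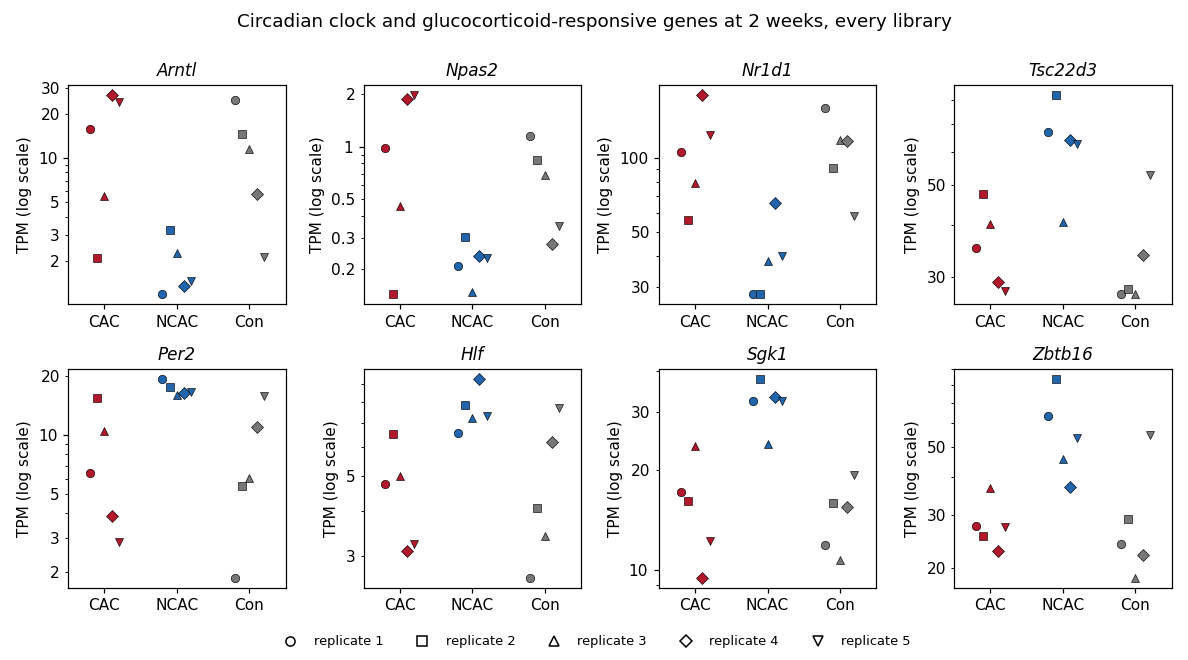
Level in TPM (vertical axes, log scale) of 5 clock genes (Arntl, Npas2, Nr1d1, Per2, Hlf) and 3 glucocorticoid-responsive genes in each CAC, NCAC and Con library at 2 weeks; marker shapes are replicate numbers, which do not pair mice. Arntl lies between 1.19 and 3.25 TPM in NCAC and spans 2.07 to 26.9 TPM in CAC, and Sgk1 in CAC lies at 23.7 TPM or less.

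The atrophy ligases had not moved past the threshold. Fbxo32 had 160.1, 123, 138, 177 and 153 TPM in CAC libraries, against 99.6, 126, 148, 159 and 111 TPM in NCAC libraries. Trim63 had 143, 108, 139.98, 189 and 176 TPM in CAC libraries, against 124, 123, 136, 102 and 97.5 TPM in NCAC libraries. Both overlapped, with differences of 0.23 (95% interval -0.43 to 0.90) and 0.36 (-0.39 to 1.10). Of 20 tested atrophy ubiquitin ligases 0 passed, and the median was 0.08 (log2). Of the 20, 2 were higher at an unadjusted p under 0.05 (7.92% of all tested genes, limma). Asb2, a cullin adaptor that limits muscle mass, was above NCAC with no overlap, at 219 to 317 TPM in CAC libraries, 168 to 215 TPM in NCAC libraries and 181 to 277 TPM in Con libraries (adjusted p = 0.391, limma).

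Differences of proteasome subunits were small. None of 31 passed, all 31 were above 0 (62.52% of all tested genes), 8 were higher at an unadjusted p under 0.05 (7.92% of all tested genes, limma), and the median was 0.11 against 0.04 over all tested genes (log2), falling to 0.05 after rescaling the libraries. Psmb4 and Psmb5, subunits of the catalytic core, had adjusted p of 0.199 and 0.248 (limma), with Psmb5 at 125 to 142 TPM in CAC libraries, 107 to 121 TPM in NCAC libraries and 119 to 142 TPM in Con libraries. Ribosomal proteins had a median of 0.20, with 51 of 52 above 0, 0 past the threshold and 4 higher at an unadjusted p under 0.05 (limma), a share near that over all tested genes, and CAC replicate 2 had the largest sum of them, 24100 TPM, where the rest of CAC had 18810 to 20990 TPM, 16160 to 19710 TPM in NCAC libraries and 18230 to 21880 TPM in Con libraries. The difference was larger for short transcripts: its median was 0.08 in the fifth of all genes with the shortest exon length and 0.01 in the fifth with the longest. Its part in the proteasome and ribosome medians was not tested.

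Transcripts of the mitochondrial genome were lower by their medians. None of 13 passed, all 13 were below 0 (62.52% of all tested genes were above 0), and the median was -0.17 (log2). Of the 13, 1 was lower at an unadjusted p under 0.05 (1.61% of all tested genes, limma). Mitochondrial transcripts made up 34.11% to 37.09% of CAC libraries, 36.38% to 43.15% of NCAC libraries and 35.94% to 38.74% of Con libraries. The nuclear-encoded respiratory chain had a median of 0.05 over 47 members, which became -0.01 after rescaling. Because TPM is a share of each library, the mitochondrial share and the level of other genes are bound together.

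Slow fibre genes were lowest in NCAC by their sums, and none passed. Of 16 tested, 14 were above 0 (62.52% of all tested genes), and the median was 0.31 (log2). Of the 16, 3 were higher at an unadjusted p under 0.05 (7.92% of all tested genes, limma). Their summed level was 48310 to 56370 TPM in CAC libraries, 37440 to 47880 TPM in NCAC libraries and 45670 to 56610 TPM in Con libraries, so CAC and NCAC sums did not overlap and the CAC sums lay within the Con range. Tnnc1 and Tnnt1, the slow troponins C and T, had differences of 0.40 and 0.41 with no overlap (adjusted p = 0.417 and 0.421, limma). Fast fibre genes had a median of -0.12 over 18 members; Myh2, the fast oxidative myosin, had 888 to 1857 TPM in CAC libraries, 1467 to 2685 TPM in NCAC libraries and 1171 to 1969 TPM in Con libraries. Myh4, the fastest myosin, was 1013 TPM in CAC replicate 4 and 13.3 to 28.6 TPM in the other CAC libraries, and NCAC libraries had 9.54 to 114.7 TPM.

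At the neuromuscular junction, Colq, the collagen tail that anchors acetylcholinesterase, had 36.8, 13.7, 25.8, 31.5 and 38.0 TPM in CAC libraries, against 11.3, 11.98, 13.4, 10.5 and 9.13 TPM in NCAC libraries, and Con libraries had 15.4 to 32.1 TPM. NCAC was below every CAC and Con library (1.23, adjusted p = 0.26, limma). Chrna1, the muscle acetylcholine receptor alpha subunit, was above NCAC with no overlap (0.52, adjusted p = 0.355) and Musk, the junction's receptor kinase, below with overlap (-0.62, adjusted p = 0.466, limma). The junction and denervation list as a whole had a median of 0.03 over 18 members and 0 passed.

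**Figure D4:**
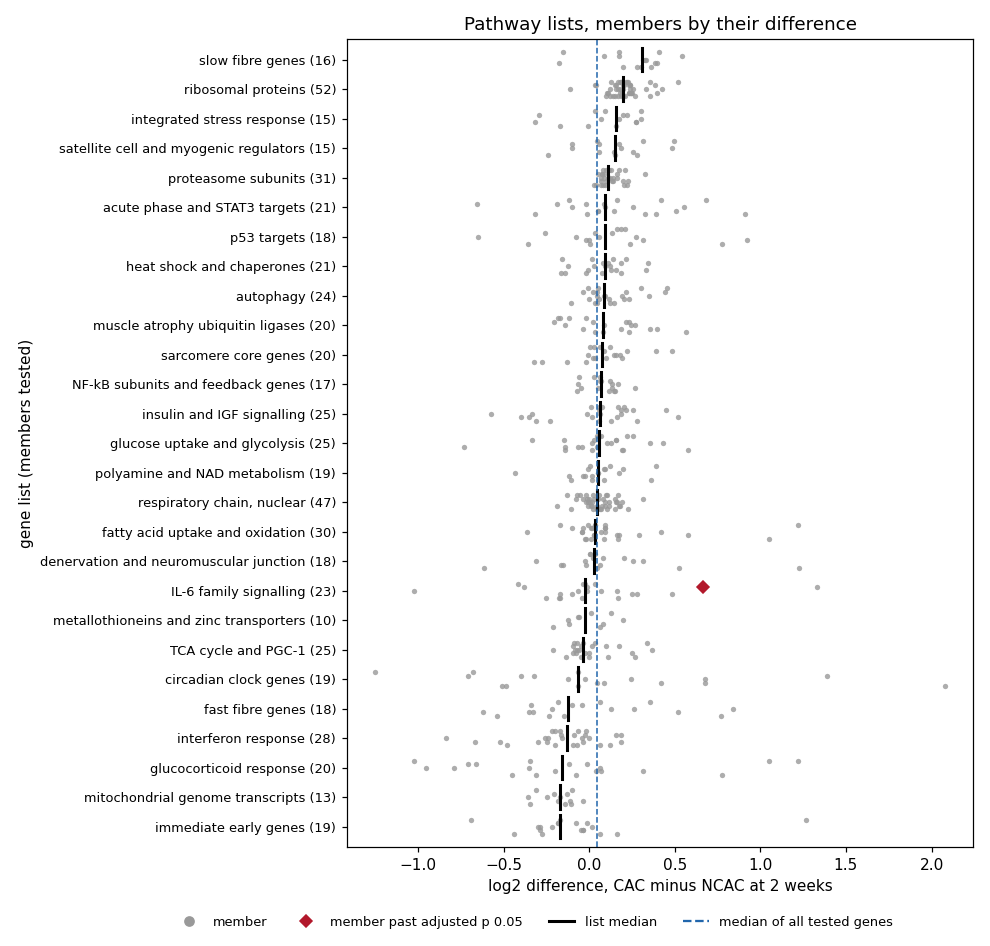
Difference of CAC minus NCAC at 2 weeks in log2(TPM + 1) (horizontal axis) for each tested member of 27 pathway lists (vertical axis, with the number tested), with the list median as a black bar. Stat3 at 0.66 is the member past the threshold, and list medians run from -0.17 to 0.31.

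No member passed in the other pathway lists, and their medians lay between -0.17 and 0.16 (log2). The median was -0.13 for 28 interferon-response genes, of which 23 were below 0 (62.52% of all tested genes were above 0). Of the 28, 3 were lower at an unadjusted p under 0.05 (1.61% of all tested genes, limma). They were H2-D1, Gbp3 and B2m, with an unadjusted p of 0.0121, 0.0269 and 0.0273 (limma). For 19 immediate early genes the median was -0.17. Medians were 0.16 for the integrated stress response, 0.15 for satellite cell and myogenic regulators, 0.10 for p53 targets, 0.09 for heat shock proteins and for autophagy, 0.08 for core sarcomere genes, 0.07 for NF-kB subunits and feedback genes, 0.06 for insulin and IGF signalling and for glucose uptake and glycolysis, and 0.05 for polyamine and NAD metabolism. Fatty acid uptake and oxidation had 0.03, metallothioneins and zinc transporters -0.02, and the TCA cycle with PGC-1 -0.04. Naprt, an enzyme that makes NAD from nicotinic acid, had CAC above NCAC with no overlap, at 8.22 to 12.4 TPM against 7.79 to 8.05 TPM (0.36, adjusted p = 0.271 at 2 weeks and 0.000101 at 4 weeks, limma).

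Markers of cells other than muscle fibres set CAC replicates 2 and 4 apart. Tnmd, the tendon membrane protein tenomodulin, had 84.9, 3.80, 55.3, 2.65 and 57.7 TPM in CAC libraries, against 48.4, 57.9, 41.8, 82.2 and 43.3 TPM in NCAC libraries, and Con libraries had 42.1, 67.1, 105.6, 12.2 and 96.5 TPM. CAC replicates 2 and 4 and Con replicate 4 were low. The summed level of 14 tendon markers was 82.1 and 105.6 TPM in those CAC libraries, 724 to 778 TPM in the other CAC libraries, 339.6 to 915 TPM in NCAC libraries and 159.8 to 1069 TPM in Con libraries. None of the 14 was listed at 0 throughout. The list median was -0.73 with all CAC libraries and 0.36 without replicates 2 and 4, and 1 marker, Scx, passed. In bulk muscle, fewer cells of a type and less RNA per cell cannot be told apart.

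Scx did not follow the other tendon markers. It was 27.1 and 44.8 TPM in CAC replicates 2 and 4, where Tnmd was lowest, and its difference was 1.08 without them (adjusted p = 0.179, limma). Stat3 was 0.67 without them (adjusted p = 0.118), and Wbscr17 1.06 (adjusted p = 0.022, limma), the 1 call that was kept. Sbno2 was 0.79 (adjusted p = 0.179), Rasa4 0.47 and Jtb 0.30 (adjusted p = 0.484 for both, limma). Medians of other cell type lists also moved with these libraries. With and without them the median was -0.31 and -0.01 for fibro-adipogenic progenitor markers and -0.31 and -0.07 for macrophage markers. It was -0.28 and 0.11 for adipocyte markers, -0.50 and -0.18 for mast cell markers and -0.01 and 0.22 for erythroid markers. Mural cell (smooth muscle and pericyte) markers had 0.16 and 0.29. In each of these lists 0 members were past the threshold. In adipocyte markers NCAC replicate 3 lay lower still, at a median deviation of -1.85 from the NCAC mean. The neutrophil median was 0.30 with and 0.26 without these libraries. Among pathway lists, the median without them was -0.31 for fast fibre genes, -0.04 for immediate early genes, 0.17 for insulin and IGF signalling and 0.04 for IL-6 family signalling. Lum, the matrix proteoglycan lumican, was below NCAC with no overlap (-0.60, adjusted p = 0.374, limma), at 25.1 to 56.8 TPM in CAC libraries, 59.0 to 69.7 TPM in NCAC libraries and 30.9 to 55.0 TPM in Con libraries.

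Endothelial and mural cell markers had medians of 0.14 and 0.16, with 11 of 13 and 10 of 12 above 0 (62.52% of all tested genes). At an unadjusted p under 0.05, 3 and 0 were higher (7.92% of all tested genes), and 0 passed the threshold (limma). Medians were 0.02 for Schwann cell, -0.01 for erythroid, 0.18 for melanocyte, -0.29 for chondrocyte and bone cell, 0.03 for lymphocyte and 0.30 for neutrophil markers, with 0 past the threshold in each. Of 13 neutrophil markers 5 were tested, and S100a9, a subunit of the myeloid protein calprotectin, was 2.04 to 4.75 TPM in CAC libraries, 0.755 to 1.57 TPM in NCAC libraries and 1.40 to 14.8 TPM in Con libraries (adjusted p = 0.377, limma).

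**Figure D5:**
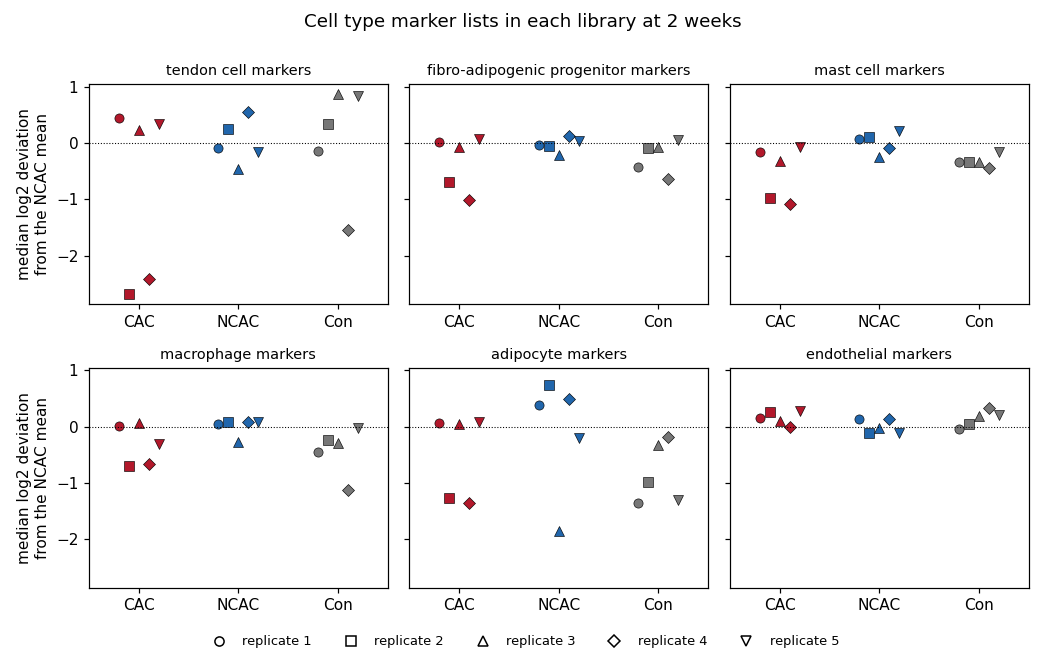
Median log2 deviation of each library from the NCAC mean (vertical axis) over the markers of 6 cell types, for CAC, NCAC and Con libraries at 2 weeks; marker shapes are replicate numbers. CAC replicates 2 and 4 lie at -2.68 and -2.42 for tendon cell markers, below every NCAC library.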

How the data were processed

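RNA from soleus was sequenced on an Illumina NovaSeq instrument from TruSeq stranded mRNA libraries, per the labels' protocols. The authors deposited TPM per gene for 47643 genes in 62 libraries; the genome build mm10 is named in the submitters' processing notes, while no source used here names an aligner or quantifier. TPM keeps no read depth, so counting error is unknown and no count model was used. Columns were matched to samples by title, with 0 left unmatched.

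Values were analysed as log2(TPM + 1) from the deposited TPM, so folds of low genes are understated. Genes with at least 1 TPM in at least 5 libraries were kept (13529). limma 3.58.1 (R 4.3.3) was fitted to the 12 group means of all libraries with an intensity trend, and p-values were adjusted by the Benjamini-Hochberg method at a threshold of 0.05. The procedure was tested on simulated data. Gene positions and lengths came from GENCODE M21.

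Named genes were all past the threshold, the 10 higher and 10 lower with the smallest p among others at 5 TPM or more in the higher group, the 3 members of each list with the smallest p at most, and a short panel; genes with predicted names were only counted. The members and the 40 gene lists were chosen with earlier results of these data known. Genes of the fits without week 8 or of the 10 libraries alone, and members named for not overlapping, were picked after their values were seen. P-values measure the spread between the deposited libraries. Same-numbered libraries did not deviate together, so replicate numbers were not used as pairs. Alternatives covered the pseudocount, filter, scaling, libraries in the fit, a replicate block, quality weights and each library left out.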

Additional observations from a re-analysis of the deposited data

Results flagged for a closer look

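Groups of 5 libraries were checked for the genes named by threshold, rank or panel, and not for genes named only as list members. Of these 74 groups, 2 held a library far from the others. Chance flags about 1 in 20 such groups. Pfkfb1 was 4.64 TPM in CAC replicate 3, where the rest of CAC had 7.07 to 8.11 TPM, and the gap was 0.749 of the group's range on the log2 scale. Myh4 was 1013 TPM in CAC replicate 4, against a highest value of 28.6 TPM among the rest of CAC, and that gap was 0.829 of the range on the same scale.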

How the results depend on the processing

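None of the 7 genes changed sign under any alternative run, but several list medians did. Without CAC replicates 2 and 4, tendon markers went from -0.73 to 0.36, adipocyte markers from -0.28 to 0.11 and erythroid markers from -0.01 to 0.22. In the same fit IL-6 signalling and metallothioneins with zinc transporters each went from -0.02 to 0.04, and lymphocyte markers from 0.03 to -0.01. After rescaling, the nuclear respiratory chain went from 0.05 to -0.01, fatty acid genes from 0.03 to -0.03 and Schwann cell markers from 0.02 to -0.03. Rescaling also took the small medians of the glycolysis, polyamine and NAD, and denervation lists just below 0. The planned fit called 7 genes higher and 0 lower; the counts were 11 and 3 without a filter, 38 and 13 with week 2 alone, 65 and 10 without week 8, 579 and 73 with sample quality weights, 1 and 3 with the 10 libraries alone, and 1 and 0 without CAC replicates 2 and 4. Rescaling by median of ratios gave 5 and 1. In settings chosen after seeing the data, leaving out these replicates and week 8 together gave 5 and 0, and quality weights in the 10 libraries alone gave 95 and 45. Leaving out 1 library at a time gave 0 to 14 higher and 0 lower. With a replicate block 0 genes passed in either direction (2138 at an unadjusted p under 0.05, limma); same-numbered libraries correlated at -0.197 to 0.151, so the numbers show no pairing. The causes of these differences were not tested. A pseudocount of 0.1 gave 8 higher, and dropping the intensity trend 6. Among the genes named by threshold, rank or panel, some of them also list members, 694 values kept their call, 71 gained it, 78 lost it and 8 moved. TPM without depth limits what low genes can show.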
